A study of Mus musculus with 21 samples.

Results

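Klf15 and 7 genes of the glucocorticoid response were followed across 21 mouse tumour libraries. The 8 genes are Nr3c1, Fkbp5, Klf9, Klf15, Zbtb16, Tsc22d3, Per1 and Sgk1, out of 55487 gene identifiers counted, and all 8 were among the 19061 genes with enough counts to be tested. They were matched by symbol, and they had been picked with the difference between the isotype arms of both backgrounds in view. That difference is therefore given as a description without a test. The tumours grew from Hepa1-6, a mouse hepatoma line, in C57BL/6 mice, and messenger RNA from frozen tumour tissue was sequenced. There were 5 tumours of B-cell-depleted mice given anti-PD1 with anti-CTLA4, 5 of WT mice given the same antibody combination, 6 of B-cell-depleted mice given isotype antibody and 5 of WT mice given isotype antibody. PD1 and CTLA4 are checkpoint receptors that restrain T cells, and the series asked what B cells contribute to the response to blocking them. The labels list B-cell depletion as a genotype and do not state how it was done, the age of the mice, the time of collection, or whether each library is a separate animal, so p-values measure the spread between these libraries only.

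Glucocorticoids such as corticosterone enter cells and bind the glucocorticoid receptor, a transcription factor that waits in the cytoplasm on HSP90 chaperones. The bound receptor moves to the nucleus, binds palindromic DNA elements, and switches on a set of targets that many tissues share. In liver it raises genes of gluconeogenesis and amino acid breakdown, and in immune cells it damps inflammatory genes. Several of its targets, among them Per1, also belong to the circadian clock, which is driven in part through E-box elements.

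Nr3c1 encodes the receptor (ENSMUSG00000024431.15). Fkbp5 (ENSMUSG00000024222.17, chr17:28399094-28517527, minus strand, GRCm38) encodes a cochaperone of HSP90 that lowers the receptor's affinity for hormone. Klf9 (ENSMUSG00000033863.2, chr19:23141226-23168134, plus strand), Klf15 (ENSMUSG00000030087.11, chr6:90462576-90475238, plus strand) and Zbtb16 (ENSMUSG00000066687.5, chr9:48654297-48836222, minus strand) encode zinc finger transcription factors. Klf15 drives amino acid breakdown and gluconeogenesis in liver and muscle, and Zbtb16 also marks innate-like T cells. Tsc22d3 (ENSMUSG00000031431.13, chrX:140539528-140600659, minus strand) encodes GILZ, an anti-inflammatory protein. Per1 (ENSMUSG00000020893.17, chr11:69095217-69109960, plus strand) encodes a repressor of the clock, and Sgk1 (ENSMUSG00000019970.15, chr10:21882184-21999903, plus strand) encodes a kinase that regulates ion transport. No exon of the 8 genes overlapped an exon of another annotated gene.

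RefSeq promoter windows on GRCm38.p6, from 250 bases before to 50 after a start site, were matched for 6 of the 8 genes. Both strands were searched for the 12 fixed letters of the receptor's element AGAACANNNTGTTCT and for the E-box CACGTG, a palindrome. No full copy of one overlapped a full copy of the other. The window of 1 of the 6 Sgk1 start sites held the whole element, at -189 from the start. This was so in 3 of 32851 windows of all genes (0.00913%). The Sgk1 window is shown because Sgk1 had the lowest adjusted p of the members below, between the WT arms. The isotype libraries of that comparison are those in which the members were picked. Between the backgrounds under the antibody combination Sgk1 did not pass (edgeR adjusted p = 0.0708). Capitals mark the element and an E-box at -246 in chr10:21993640-21993889, plus strand.
Sgk1: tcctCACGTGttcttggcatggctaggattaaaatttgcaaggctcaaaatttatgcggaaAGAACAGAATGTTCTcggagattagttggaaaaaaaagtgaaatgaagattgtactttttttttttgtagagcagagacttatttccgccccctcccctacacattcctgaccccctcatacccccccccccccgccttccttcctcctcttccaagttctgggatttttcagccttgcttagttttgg
The best partial matches in the other windows had between 6 and 10 of the 12 letters, and 57.0% of all windows hold at least 8. The single Klf15 window had 7 of 12 letters and 3 E-boxes, at -228, -172 and -3, a number reached by 29 of the 32851 windows (0.0883%). At least 1 E-box was found in 7.15% of windows. The Klf15 window is shown as chr6:90462326-90462578, plus strand, which runs past the start site to the end of the last E-box, with the E-boxes in capitals.
Klf15: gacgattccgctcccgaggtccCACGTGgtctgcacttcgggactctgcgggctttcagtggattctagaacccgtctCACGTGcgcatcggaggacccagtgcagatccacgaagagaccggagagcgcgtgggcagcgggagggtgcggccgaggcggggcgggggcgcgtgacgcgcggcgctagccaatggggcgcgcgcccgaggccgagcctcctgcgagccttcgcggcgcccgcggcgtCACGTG
The Per1 window at chr11:69098699-69098948, plus strand, and the Fkbp5 window at chr17:28486150-28486399, minus strand, held 1 E-box each, at -166 and -169, again in capitals.
Per1: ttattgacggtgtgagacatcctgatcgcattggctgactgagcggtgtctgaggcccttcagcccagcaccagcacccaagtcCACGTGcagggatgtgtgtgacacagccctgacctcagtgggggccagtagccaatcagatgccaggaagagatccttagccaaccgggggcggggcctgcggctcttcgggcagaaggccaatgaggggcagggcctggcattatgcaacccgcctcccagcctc
Fkbp5: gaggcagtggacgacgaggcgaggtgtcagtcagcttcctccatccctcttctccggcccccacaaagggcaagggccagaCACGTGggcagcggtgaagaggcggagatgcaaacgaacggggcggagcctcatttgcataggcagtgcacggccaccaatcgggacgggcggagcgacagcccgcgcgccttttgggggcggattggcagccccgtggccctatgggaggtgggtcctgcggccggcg
The E-box was added to the search, and these windows were picked for printing, after the sequences had been seen. A match describes the letters only.

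Levels are given as CPM, counts per 1000000 of a library's total, and fold changes are log2 values with their standard error from edgeR's quasi-likelihood fit. Library totals ran from 9.52 to 19.17 M counts, so Klf15, the scarcest of the 8, rested on 4 to 111 counts per library. In bulk tumour tissue fewer cells of a type and less RNA per cell cannot be told apart. The B-cell genes Ms4a1 and Cd79a had 0 counts in B-depleted combination replicates 1, 3 and 4, but replicate 5 of that arm had 22 Ms4a1 counts, where WT isotype tumours had 2 to 19. The 3 B-depleted libraries with at least 200 Ighm or 20 Ms4a1 counts (this one and B-depleted isotype replicates 4 and 5) were left out in an alternative fit chosen after seeing the data, called the fit without the 3 Ighm or Ms4a1 libraries. Hepatocyte markers were measured in every library, and their summed level was 603 to 1858 CPM in B-depleted combination, 129 to 1030 in WT combination, 1305 to 2423 in B-depleted isotype and 1032 to 3007 in WT isotype tumours.

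Under isotype antibody, Klf15 was the member that stood apart most between the backgrounds. It had 0.257 to 0.641 CPM in B-depleted isotype tumours (median 0.442, counts of 4 to 9) and 1.21, 1.13, 1.59, 6.36 and 3.59 CPM in WT isotype replicates 1 to 5. Each of the 6 B-depleted tumours lay below all 5 WT tumours, and the fitted difference was -2.65 ± 0.42 on the log2 scale, or 6.29-fold lower. WT isotype replicates 4 and 5 held the highest Klf15 values of all 21 libraries, while replicates 1 to 3 lay below the median of WT combination tumours (2.20 CPM). Without WT isotype replicate 4 the difference was -2.10. Groups that did not overlap occurred for 0.462% of the 19061 genes (0.178% lower and 0.283% higher), and edgeR called 0% of genes here at an adjusted p of 0.05, with 2.95% at that unadjusted level. Nothing is read from these shares, since the gene was picked on this contrast.

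The other members except Nr3c1 had lower means in B-depleted than in WT isotype tumours, with overlapping libraries. Fkbp5 had 88.2 to 156 CPM in B-depleted isotype tumours (median 128) and 76.2, 83.7, 230, 282 and 236 CPM in WT isotype replicates 1 to 5. Zbtb16 had 17.1 to 29.6 CPM in B-depleted isotype tumours (median 25.5) and 13.5, 10.7, 51.1, 70.0 and 49.3 CPM in the same WT replicates. In both genes WT replicates 1 and 2 lay below all 6 B-depleted tumours and replicates 3 to 5 above them. The same 3 WT libraries exceeded all 16 libraries of the other arms for Klf9, Fkbp5, Tsc22d3, Sgk1 and Zbtb16, and replicates 4 and 5 did so for Klf15 and Per1. The differences of means were -0.57 ± 0.27 for Fkbp5, -0.73 ± 0.39 for Zbtb16, -0.64 for Tsc22d3, -0.39 for Per1, -0.34 for Sgk1 and -0.31 for Klf9 on the log2 scale. Without WT isotype replicate 4 they were -0.36 for Fkbp5 and -0.42 for Zbtb16, and without replicate 3 -0.20 for Klf9. The receptor gene Nr3c1 had 235 to 314 CPM in B-depleted isotype tumours (median 287) and 260 to 314 CPM in WT isotype tumours (median 270), a difference of 0.01. Over the 8 members the median difference was -0.48, against -0.01 over all genes tested. The members were picked on this contrast, so nothing is read from these medians.

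**Figure D1:**
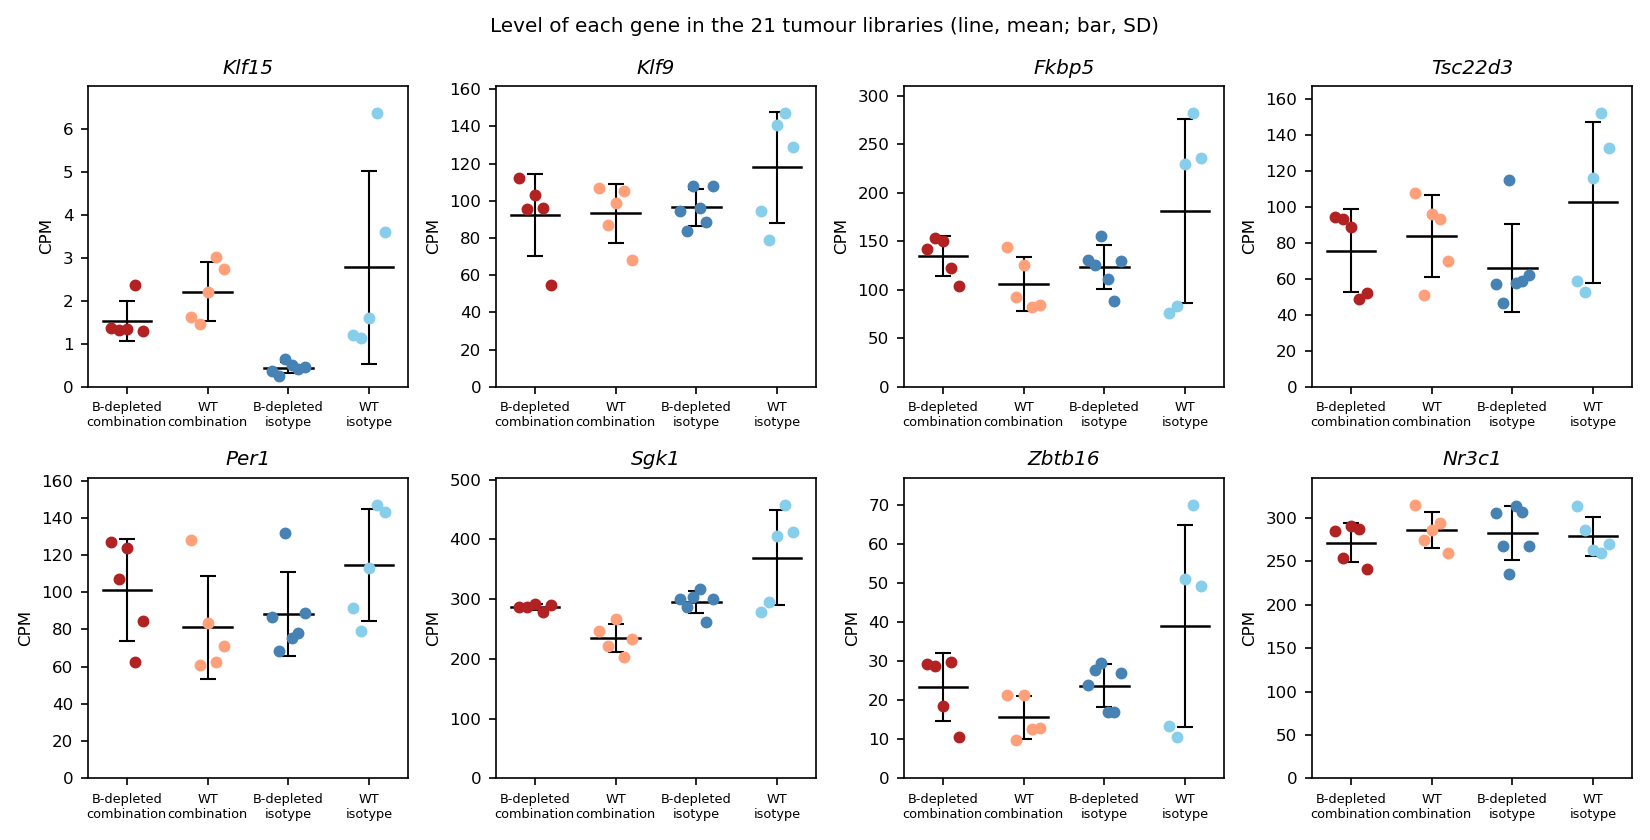
Level of each of the 8 genes in CPM (vertical axes from 0, scaled by gene) in every library, with the arms side by side, points for libraries, lines for the arm mean and bars for the SD. WT isotype libraries fall into low and high values for most genes, Klf15 is lowest in the 6 B-depleted isotype libraries (0.257 to 0.641 CPM), and Nr3c1 spans 235 to 315 CPM.

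The comparison of the backgrounds under the antibody combination sets no isotype library against another group, but the isotype libraries enter the spread that the fit shares. No member passed the threshold there: edgeR called 0 of 8 and DESeq2 0 of 8, with 1 of 8 at an unadjusted p under 0.05, while 29.1% of all genes tested were called and 43.5% had an unadjusted p under 0.05. Klf15 had 1.37, 1.31, 1.34, 2.36 and 1.29 CPM in B-depleted combination tumours and 1.63, 1.46, 2.20, 3.03 and 2.74 CPM in WT combination tumours. Of the 5 B-depleted tumours, 4 lay below all WT tumours, and the difference was -0.55 ± 0.40 (edgeR adjusted p = 0.306). B-depleted combination replicate 4, the exception, also had the highest summed level of adipocyte markers of all libraries, 551 CPM against 70.8 to 108 CPM in the other 20, and its part in the Klf15 value was not tested.

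Sgk1 was the member nearest to the threshold under the combination. It had 287, 287, 292, 279 and 290 CPM in B-depleted tumours and 247, 222, 266, 204 and 233 CPM in WT tumours. All 5 B-depleted tumours lay above all 5 WT tumours, as in 10.5% of genes tested in either direction (4.51% higher and 6.03% lower). The difference was 0.28 ± 0.11 (edgeR adjusted p = 0.0708). Fitted on these 10 libraries alone, it was 0.27 with an edgeR adjusted p of 0.0402. Without WT combination replicate 3 the adjusted p was 0.0320 and without WT isotype replicate 1, which enters the shared spread only, 0.0430. Without the 3 Ighm or Ms4a1 libraries the difference was 0.25 (edgeR adjusted p = 0.112), and over all 8 alternatives the adjusted p ran from 0.0167 to 0.642.

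The other members overlapped between the backgrounds. Fkbp5 averaged 134 ± 20.5 CPM in B-depleted and 106 ± 27.8 CPM in WT combination tumours (SD, n = 5 each), a difference of 0.33 ± 0.29 (edgeR adjusted p = 0.394). Zbtb16 averaged 23.4 ± 8.60 CPM in B-depleted and 15.6 ± 5.39 CPM in WT tumours, and Per1 101 ± 27.3 CPM in B-depleted and 81.3 ± 27.7 CPM in WT tumours. Their differences were 0.56 ± 0.42 and 0.30 ± 0.23 on the log2 scale (edgeR adjusted p = 0.309 and 0.333), so none of the 3 passed. Tsc22d3 averaged 75.6 ± 23.1 CPM in B-depleted and 83.6 ± 22.8 CPM in WT tumours, a difference of -0.17 ± 0.30 (edgeR adjusted p = 0.685). Klf9 and Nr3c1 differed by -0.04 ± 0.18 and -0.09 ± 0.08 (edgeR adjusted p = 0.880 and 0.394).

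In WT tumours the antibody combination went with lower Sgk1, Zbtb16 and Fkbp5. These 3 of 8 members fell past the threshold, where 25.0% of all genes tested fell and 50.0% were called in either direction, so the count of 3 lies near the background. At an unadjusted p under 0.05 there were 4 of 8 members and 56.5% of all genes. The isotype libraries here are those in which the members were picked, and the high values of WT isotype replicates 3 to 5 enter the comparison. Sgk1 had the 204 to 266 CPM given above in WT combination tumours and 278, 295, 406, 458 and 412 CPM in WT isotype tumours. The groups did not overlap, as in 29.3% of genes (14.3% lower and 15.0% higher), and Sgk1 fell by 0.64 ± 0.11 on the log2 scale (edgeR adjusted p = 0.000299). It was called without any 1 library, with adjusted p from 0.000136 to 0.00167.

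Zbtb16 had 21.4, 9.77, 21.3, 12.6 and 12.8 CPM in WT combination tumours, which overlap replicates 1 and 2 of WT isotype and lie below replicates 3 to 5. It fell by 1.31 ± 0.42 (edgeR adjusted p = 0.0141), with an adjusted p of 0.0546 without WT isotype replicate 4 and 0.00239 without the library whose removal lowered it most. Fkbp5 had 144, 92.2, 126, 82.3 and 84.0 CPM in WT combination tumours, within the range of WT isotype. It fell by 0.76 ± 0.29 (edgeR adjusted p = 0.0334), and the call was lost in 6 of 21 fits that left out 1 library, with adjusted p of 0.0662 to 0.113. Those were WT isotype replicates 3, 4 and 5 and WT combination replicates 2, 4 and 5. Per1, Klf9, Klf15 and Tsc22d3 had differences of -0.48, -0.33, -0.30 and -0.27 that did not pass (edgeR adjusted p from 0.0872 to 0.524), and Nr3c1 differed by 0.06 ± 0.08 (edgeR adjusted p = 0.585). The median over the members was -0.41, against 0.00 (-0.000857) over all genes tested.

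The summed level of hepatocyte markers also differed between these arms, 129 to 1030 CPM in WT combination against 1032 to 3007 CPM in WT isotype tumours, and its part in the falls was not tested. T-cell and Y-linked sums were higher in every WT combination library than in any WT isotype library, at 500 to 787 against 129 to 256 CPM and at 135 to 250 against 47.6 to 79.2 CPM. Handling-stress and immediate early genes summed to 400 to 513 CPM in WT combination against 542 to 709 CPM in WT isotype tumours, also without overlap. Of 9 mitochondrially encoded genes, 5 fell (median -0.76). The part of these values in the members' falls was not tested. With the Y-linked sum as a covariate, none of the 8 members passed, and the differences were -0.45 for Sgk1, -0.39 for Zbtb16 and -0.13 for Fkbp5 (edgeR adjusted p = 0.292, 0.901 and 0.962). That fit called 77 of all genes tested, against 9529 without the covariate. Since the Y-linked sums of these arms did not overlap, the fit cannot separate that sum from the treatment.

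In B-depleted tumours Klf15 had higher values under the combination than under isotype, short of the threshold. The 5 combination values of 1.29 to 2.36 CPM lay above all 6 isotype values of 0.257 to 0.641 CPM, as in 2.01% of genes tested (1.14% higher and 0.876% lower). The difference was 1.80 ± 0.43, or 3.49-fold (edgeR adjusted p = 0.0706). edgeR called 0 of 8 members, against 0.341% of all genes (0.304% higher and 0.0367% lower), with 1 of 8 at an unadjusted p under 0.05, against 14.3% of all genes. DESeq2 called Klf15 with a difference of 1.81 (adjusted p = 0.0100), and edgeR did so with a replicate block (1.85, adjusted p = 0.0394). Over all 8 alternatives edgeR's or DESeq2's adjusted p ran from 0.0100 to 0.201, with 1.88 and 0.189 without the 3 Ighm or Ms4a1 libraries. The low isotype values are those on which Klf15 was picked, so the comparison is not independent of that choice.

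No other member came near the threshold between the B-depleted arms. Fkbp5 had 142, 153, 150, 123 and 104 CPM under the combination and 88.2 to 156 CPM under isotype. Sgk1 had 279 to 292 CPM under the combination and 262 to 317 CPM under isotype. The arms overlap for both genes, and the differences were 0.13 for Fkbp5 and -0.02 for Sgk1 (edgeR adjusted p = 0.854 and 0.943). The remaining 5 differed by between -0.06 and 0.21 (edgeR adjusted p from 0.687 to 0.991). A test of whether the response to the combination differed between the backgrounds was not made, because it contains the isotype contrast.

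**Figure D2:**
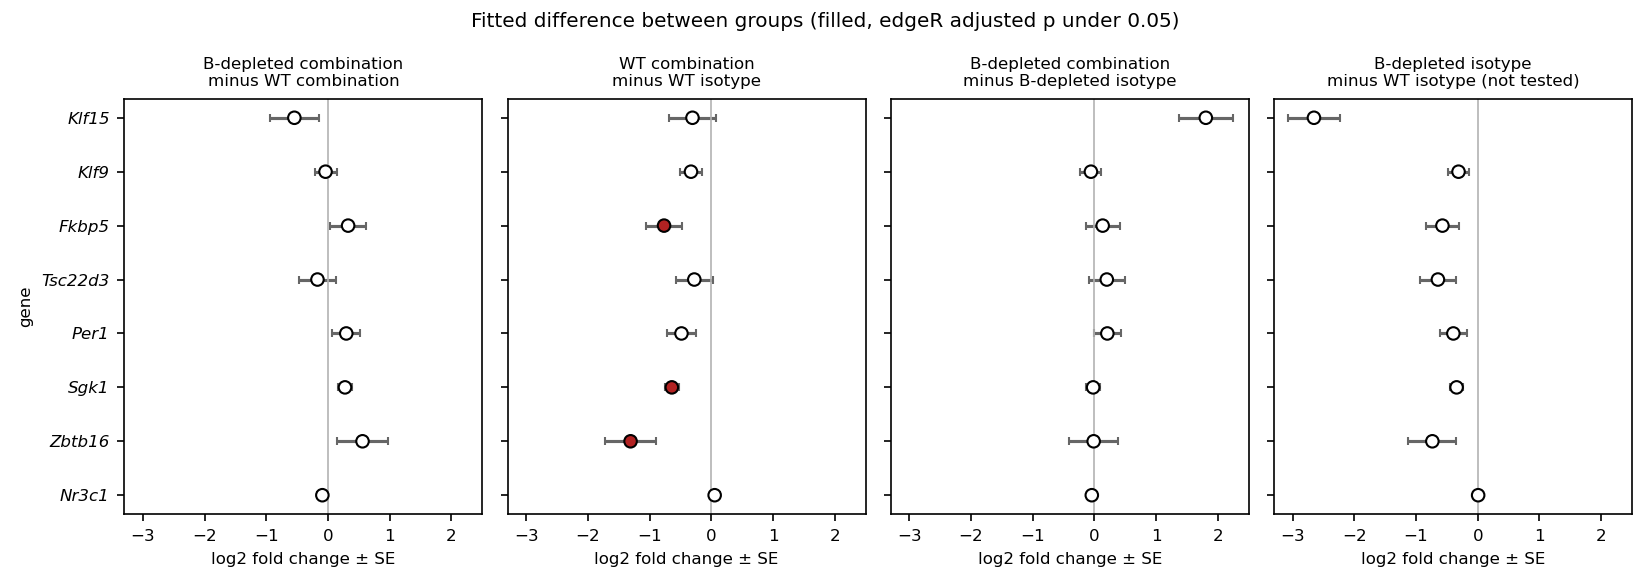
Log2 fold change of the 8 genes in 4 comparisons (points, with bars of 1 standard error; filled points passed an edgeR adjusted p of 0.05, and the isotype contrast carries no test). Klf15 lies at -2.65 between isotype arms and at 1.80 between B-depleted arms, and Sgk1, Zbtb16 and Fkbp5 passed between WT arms.

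Divided by exon length, the levels of the 8 genes spanned a wide range. In WT isotype tumours Sgk1 had the highest mean level, 75.4 CPM per kilobase of merged exons, followed by Nr3c1 with 36.3. Klf9 (24.5), Tsc22d3 (23.6), Per1 (20.4) and Fkbp5 (19.2) followed with overlapping libraries. Zbtb16 had 7.37 and Klf15 0.994 CPM per kilobase. Across all 21 libraries the highest CPM value was 24.8 times the lowest for Klf15, 7.16 for Zbtb16, 3.69 for Fkbp5, 3.24 for Tsc22d3, 2.69 for Klf9, 2.41 for Per1, 2.25 for Sgk1 and 1.34 for Nr3c1. The receptor gene thus had the narrowest range of the 8 and Klf15 the widest, on the fewest counts.

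The members other than Klf15 and Nr3c1 varied most alike across all libraries. Klf15 was closer to them within arms than across arms when the WT isotype libraries were included. Pearson's r of log2 CPM over the 21 libraries, which share each library's depth and tissue makeup, was 0.461 to 0.916 in the 15 pairs of Klf9, Fkbp5, Tsc22d3, Per1, Sgk1 and Zbtb16 (median 0.734). After subtracting arm means it was 0.508 to 0.912. Over the 16 libraries other than WT isotype the values were -0.160 to 0.768 (median 0.448), lower than with WT isotype. Fkbp5 and Zbtb16 were the closest pair with all libraries, at 0.916, and had 0.768 without WT isotype. Klf15 had 0.202 to 0.591 with these 6 genes (median 0.303), 0.289 to 0.598 after subtracting arm means (median 0.546), and -0.554 to 0.404 without WT isotype. With arm means subtracted and WT isotype left out, Klf15 had -0.186 to 0.201 with them (median 0.0776). The 15 pairs then had -0.0256 to 0.844 (median 0.558). Nr3c1 had -0.402 to 0.04 (0.0364) with the other 7.

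**Figure D3:**
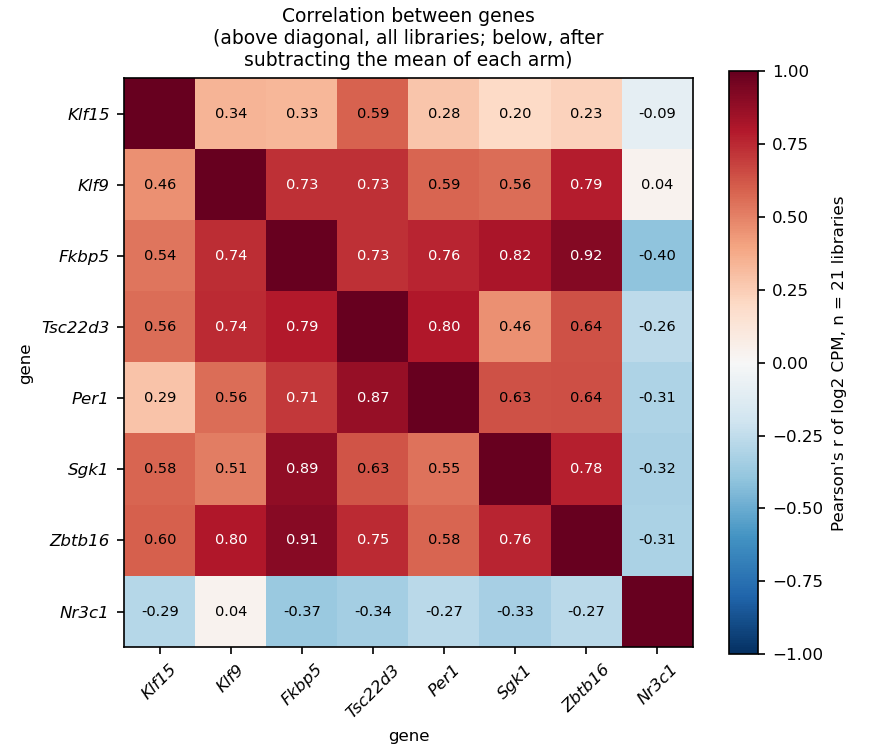
Pearson's r of log2 CPM between the 8 genes over all 21 libraries (rows and columns are genes; above the diagonal as measured, below it after subtracting arm means), with the value in each cell. The 6 genes Klf9, Fkbp5, Tsc22d3, Per1, Sgk1 and Zbtb16 form a block of 0.461 to 0.916 above the diagonal and of 0.508 to 0.912 below it, and Nr3c1 has values near or below 0.

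Cell type markers moved with some members. Fkbp5 had r of 0.61 with the summed hepatocyte markers over the 21 libraries and 0.67 after subtracting arm means, and Zbtb16 had 0.69 and 0.68. With the summed markers of innate-like T cells Zbtb16 had -0.51 and -0.39. Sgk1 had 0.71 with hepatocyte markers and 0.53 after subtracting arm means, -0.67 and -0.39 with T-cell markers, -0.69 and -0.31 with the Y-linked sum, 0.70 and 0.40 with mitochondrially encoded genes, and 0.58 and 0.16 with handling-stress genes. Fkbp5 had -0.55 with the B-cell markers and -0.73 after subtracting arm means. Sgk1 had -0.61 and -0.60 with them, Zbtb16 -0.58 and -0.62, Klf9 -0.31 and -0.55, and Per1 -0.37 and -0.44. Tsc22d3 had -0.001 and -0.37, Klf15 0.48 and -0.05, and Nr3c1 0.17 and -0.01. B-cell sums were 74.1 and 45.4 CPM in WT isotype replicates 1 and 2 and 15.5, 20.3 and 26.8 CPM in replicates 3 to 5. The hepatocyte sums of WT isotype replicates 3 to 5, at 3007, 2706 and 2096 CPM, were above those of replicates 1 and 2, at 1032 and 1109 CPM, as Fkbp5 was. B-depleted isotype tumours reached 2423 CPM of hepatocyte markers with Fkbp5 at no more than 156 CPM. For Klf15 the values were -0.33 and 0.05 with hepatocyte markers, 0.56 and 0.34 with macrophage markers, and 0.29 and 0.41 with adipocyte markers. What part these cells have in the members' levels was not tested.

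**Figure D4:**
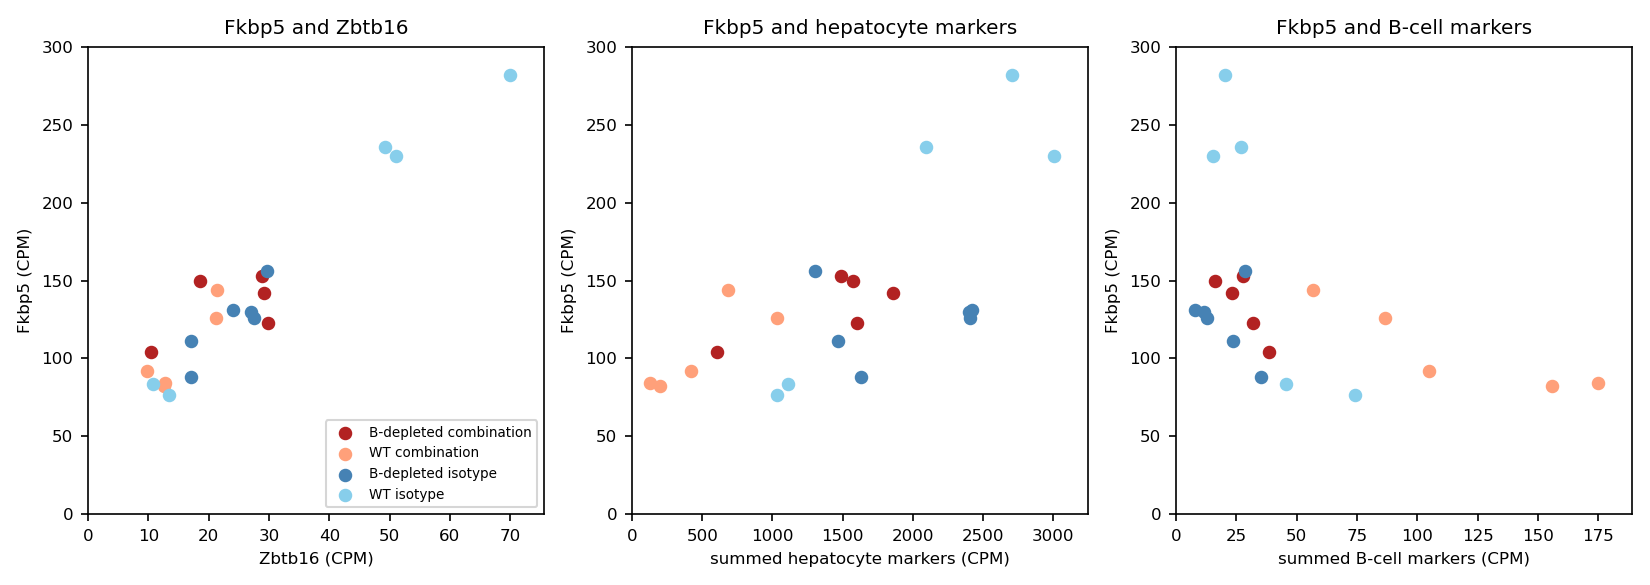
Fkbp5 in CPM (vertical axis) against Zbtb16 in CPM and the summed CPM of hepatocyte and of B-cell markers (horizontal axes, left to right), 1 point per library, coloured by arm. WT isotype replicates 3 to 5 lie at 230 to 282 CPM of Fkbp5, above every other library, with hepatocyte sums of 2096 to 3007 CPM.

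Among 13355 genes compared over the 21 libraries, those whose log2 CPM most resembled Klf15 were Serinc3 (r = 0.799), Ass1 (0.793), Mlxip (0.766), Cyb5a (0.763), H6pd (0.752) and Sult1a1 (0.751). The most opposed were Dtna (-0.749) and Zfp180 (-0.718). After subtracting arm means Serinc3 again came first (0.792), followed by Evi5 (0.77), Sult1a1 (0.745), Fmo2 (0.741) and Fam107a (0.74). Of the other members, Tsc22d3 ranked 219 and Klf9 3098 as measured, and the rest lower. After subtracting arm means Zbtb16 ranked 75 (0.598), Sgk1 91 (0.584), Tsc22d3 130 (0.556), Fkbp5 177 (0.535) and Klf9 433 (0.461). Per1 ranked 1936 and Nr3c1 11562. All these ranks include the WT isotype libraries. Without that arm, r with Klf15 within arms was 0.136 for Zbtb16, 0.0194 for Sgk1, 0.201 for Tsc22d3, -0.186 for Fkbp5 and 0.182 for Klf9.

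The related lists below were counted by the same tests. With the Y-linked covariate just 1 of their genes, in the inflammatory list, was called under the combination or between the WT arms. Over all genes, that fit called 4 and 77 in those comparisons. A list of 34 other glucocorticoid-induced genes had calls in both directions between the backgrounds under the combination: 2 rose and 6 fell in B-depleted tumours, where 15.5% and 13.5% of all genes did, and the median difference was 0.01. Without the 3 Ighm or Ms4a1 libraries 2 rose and 10 fell, with a median of -0.27. Over all genes that fit called 3774 higher and 3675 lower, against 2963 and 2582 in the main fit. The same background applies to the lists below in this comparison. Mertk, a receptor for the clearance of dying cells, averaged 99.9 ± 20.5 CPM in B-depleted and 179 ± 45.3 CPM in WT combination tumours and fell by 0.85 ± 0.22 (edgeR adjusted p = 0.0129). Pim3, a survival kinase, averaged 69.1 ± 5.96 CPM in B-depleted and 39.8 ± 13.0 CPM in WT combination tumours and rose by 0.78 ± 0.20 (edgeR adjusted p = 0.0120). Between WT combination and WT isotype tumours 6 rose and 9 fell, with a median of -0.07. Hif3a fell by 2.07 (edgeR adjusted p = 0.0185), and Mertk and the kinase gene Ptk2b rose by 1.37 and 1.33. The arms overlapped for Hif3a, at 0.782 to 2.25 CPM in WT combination and 0.732 to 14.4 CPM in WT isotype tumours. Between the isotype arms 25 of 34 had lower means in B-depleted than in WT tumours, with a median difference of -0.20, against -0.01 over all genes. The members were picked on this contrast in the same libraries, so nothing is read from these values. Between the B-depleted arms 0 of 34 passed by edgeR and 1 by DESeq2.

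Genes of the receptor's chaperone machinery had more rises than falls in B-depleted against WT combination tumours and more falls than rises in WT combination against WT isotype tumours. Of 18 chaperone and cofactor genes, 8 rose and 1 fell in B-depleted against WT combination tumours (median 0.26), and 1 rose and 11 fell in WT combination against WT isotype tumours (median -0.36). Of all genes tested, 15.5% rose and 13.5% fell in the first comparison, and 25.0% rose and 25.0% fell in the second. These comparisons share the WT combination libraries. The hepatocyte sums were 603 to 1858, 129 to 1030 and 1032 to 3007 CPM in B-depleted combination, WT combination and WT isotype tumours, the handling-stress sums were 473 to 604, 400 to 513 and 542 to 709 CPM in those arms, and their part in the counts was not tested. Fkbp4, a cochaperone that helps the receptor reach the nucleus, averaged 122 ± 22.8 CPM in B-depleted combination, 68.0 ± 25.0 CPM in WT combination and 133 ± 27.0 CPM in WT isotype tumours. It rose by 0.82 ± 0.21 in the first comparison (edgeR adjusted p = 0.0116) and fell by 0.95 ± 0.21 in the second (edgeR adjusted p = 0.00121). Nr3c2, the mineralocorticoid receptor, rose by 0.59 and the coactivator gene Ncoa1 fell by 0.63 in the first comparison. Stip1 and Dnajb1, which encode cochaperones, fell by 0.79 and 0.85 in the second.

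Of the 12 glucocorticoid-induced liver metabolism genes listed, 6 had enough counts to test. In WT combination against WT isotype tumours 5 of 6 fell and none rose, with a median of -1.32. Of all genes tested, 25.0% fell and 25.0% rose there. Tat, which starts tyrosine breakdown, averaged 0.365 ± 0.203 CPM in WT combination and 3.10 ± 2.59 CPM in WT isotype tumours and fell by 3.05 ± 0.77 (edgeR adjusted p = 0.00325). Igfbp1, a secreted binder of insulin-like growth factors, fell by 1.82, and Ppargc1a, a coactivator of gluconeogenic genes, by 1.43. In B-depleted against WT combination tumours 2 of 6 rose, where 15.5% of all genes rose and 13.5% fell. They were Ppargc1a, by 0.96 ± 0.32, and the transaminase gene Gpt2, by 0.53 ± 0.18 (edgeR adjusted p = 0.0333 and 0.0353). The list median was 0.74, and 5 of 6 rose without the 3 Ighm or Ms4a1 libraries. The hepatocyte markers given above moved the same way in each of these comparisons.

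Genes of amino acid and muscle metabolism linked to Klf15 numbered 10 tested of 12. In B-depleted tumours Arg1, the arginase gene that macrophages also express, was the only one called between the combination and isotype, at 201 ± 89.0 CPM under the combination against 88.1 ± 28.5 CPM under isotype (SD, n = 5 and 6), and rose by 1.22 ± 0.25 (edgeR adjusted p = 0.0407). None of the 10 was called without the 3 Ighm or Ms4a1 libraries. In WT combination against WT isotype tumours Arg1, the lipase gene Lpl and the transaminase gene Bcat2 rose by 1.82, 1.27 and 1.23, and none fell. In B-depleted against WT combination tumours Lpl fell by 0.81 and Gpt rose by 0.68. Of all genes tested, 25.0% rose and 25.0% fell between the WT arms, and 15.5% and 13.5% did under the combination. Between the B-depleted arms 0.304% rose and 0.0367% fell. Between the isotype arms, where Klf15 differed most, the list's median was -0.08. Klf15 was picked on this contrast, so nothing is read from that value.

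The clock and the other Kruppel-like factors were also counted. Of 17 clock genes, 1 rose and 4 fell in B-depleted against WT combination tumours (median -0.23), where 15.5% of all genes rose and 13.5% fell. Among those that fell, Rora, a nuclear receptor of the clock, averaged 55.3 ± 6.35 in B-depleted and 90.1 ± 11.4 CPM in WT tumours. Its fall was 0.72 ± 0.10 (edgeR adjusted p = 0.00260). In WT combination against WT isotype tumours 8 of 17 rose and 3 fell (median 0.39), where 25.0% of all genes rose and 25.0% fell. Without the 3 Ighm or Ms4a1 libraries 2 clock genes rose and 5 fell in the first comparison. Between the WT arms Bhlhe41, a repressor of the clock, rose by 1.82 and Hlf, a transcription factor under clock control, by 1.65. Of 12 other Kruppel-like factors tested, 2 rose and 3 fell in the first of these comparisons and 5 rose and 1 fell in the second. The shares over all genes are those given for the clock genes. The first count was 2 and 5 without the 3 Ighm or Ms4a1 libraries. Klf12 averaged 23.1 ± 5.81 CPM in B-depleted combination, 10.7 ± 2.13 CPM in WT combination and 33.0 ± 17.5 CPM in WT isotype tumours. Klf5 and Klf8 fell by 1.60 and 1.12 in B-depleted against WT combination tumours.

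Inflammatory genes that glucocorticoids repress in other settings mostly rose with the combination in WT tumours. Of 19 tested, 11 rose and 1 fell in WT combination against WT isotype tumours (median 1.01), with Nos2, the inducible nitric oxide synthase, at 311 ± 26.3 CPM in WT combination and 51.5 ± 10.9 CPM in WT isotype tumours and a rise of 2.62 ± 0.27 (edgeR adjusted p = 1.33e-05). Of all genes tested, 25.0% rose and 25.0% fell there. Ccl5, a T-cell attracting chemokine, rose by 2.33, and Cxcl1, which attracts neutrophils, fell by 2.41 (edgeR adjusted p = 0.0290 for Cxcl1). The arms overlapped for Cxcl1, at 0.755 to 4.17 CPM in WT combination and 0.998 to 19.8 CPM in WT isotype tumours. In B-depleted against WT combination tumours 0 rose and 5 fell, where 15.5% of all genes rose and 13.5% fell. Nos2 fell by 1.41, Ccl5 by 1.16 and Il12b by 1.77, and 8 of the list fell without the 3 Ighm or Ms4a1 libraries. In B-depleted tumours Ifng, the gene of interferon-gamma, was called between the combination and isotype, with a rise of 1.51 ± 0.31 (edgeR adjusted p = 0.0373). It was 1 of 19 called there, against 0.341% of all genes, and 2 were called without the 3 Ighm or Ms4a1 libraries. T-cell markers, at 299 to 425 CPM in B-depleted combination and 500 to 787 CPM in WT combination tumours, moved with these counts. So did macrophage markers, at 1763 to 3756 CPM in B-depleted combination and 3205 to 6040 CPM in WT combination tumours, with overlap. In WT isotype tumours macrophage markers summed to 1079 to 2037 CPM. The part of T-cell and macrophage markers in these counts was not tested. Of 8 tested genes that supply, transport or break down glucocorticoids, 1 rose and 1 fell in B-depleted against WT combination tumours, the first comparison. Between the WT arms 1 rose and 3 fell, with Srd5a1, Abcb1a and Abcb1b falling by 1.00, 0.99 and 0.85. The shares over all genes are those given above for each comparison. Without the 3 Ighm or Ms4a1 libraries 1 rose and 3 fell in the first comparison.

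**Figure D5:**
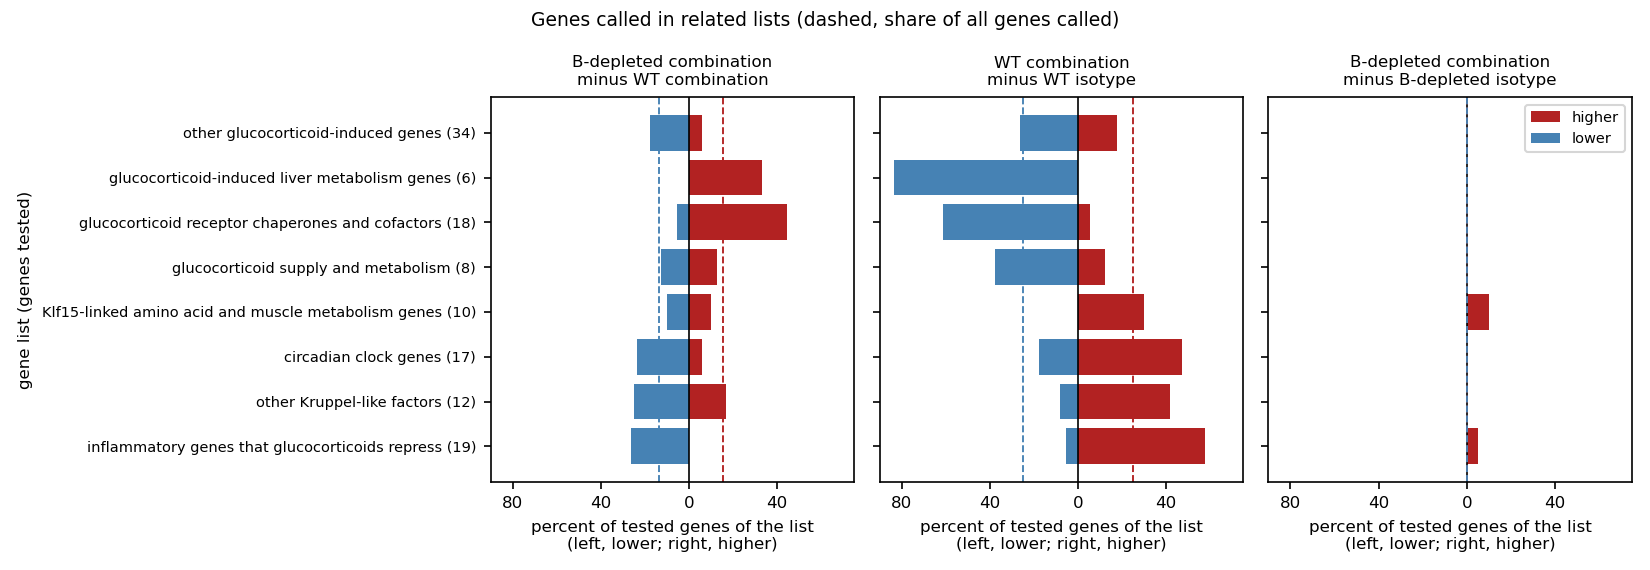
Percent of each list's tested genes that rose (right of 0) or fell (left of 0) past an edgeR adjusted p of 0.05 in 3 comparisons, with dashed lines at the percent over all genes tested. The chaperone list has 8 of 18 up in B-depleted against WT combination tumours and 11 of 18 down between the WT arms, and the B-depleted arms have few calls.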

How the data were processed

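RNA of 21 tumours in 4 groups, taken from the sample titles, was analysed from 1 deposited table of raw read counts per Ensembl gene (whole numbers, with unequal totals from 9.52 to 19.17 M). The submitters' processing notes name the genome GRCm38, STAR 2.7.2a and cutadapt 2.4, and the labels' protocols a stranded mRNA kit. Which program counted reads is not given in the sources used here. Gene identifiers were given symbols and exon lengths from the GENCODE M21 annotation; 346 of 55487 had none and held 0.037% of counts.

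Counts were filtered with filterByExpr, scaled by TMM and fitted with robust quasi-likelihood in edgeR 4.0.16 (R 4.3.3, limma 3.58.1), 1 model of 4 groups without covariates, and p-values were Benjamini-Hochberg adjusted over the 19061 genes at a threshold of 0.05. The fit was tested on simulated data. DESeq2 1.42.0, RLE scaling, no filter, 2-group fits, a replicate block, a Y-linked covariate, leaving out libraries and leaving out WT isotype replicates 1 and 2 were the alternatives. Log2 CPM for correlations used a prior count of 2. Within arms, 45 library pairs correlated at r of 0.943 to 0.988 with a lowest chi-square per degree of freedom of 6.99, so none was counted as a repeat.

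The 8 genes, the lists and the tests were chosen with earlier results of these data known. In each list the text names up to 3 called genes of largest change with a mean of at least 1 CPM, or 2 of smallest p as values where none passed; 2 genes are not reported here.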

Additional observations from a re-analysis of the deposited data

Results flagged for a closer look

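Of 88 sets of values searched, each 1 gene or marker sum in 1 arm of 5 or 6 libraries, 14 had a library far from the rest of its arm by Dixon's criterion, which chance gives in about 1 of 20. Among the 8 genes, Klf15 stood apart at 2.36 CPM in B-depleted combination replicate 4, and Klf9 at 54.6 CPM in replicate 5 of that arm. Tsc22d3 and Per1 stood apart at 115 and 132 CPM in B-depleted isotype replicate 3. In B-depleted combination replicate 5 the summed markers of macrophages (3756 CPM), neutrophils (825 CPM), fibroblasts (25392 CPM) and the Y-linked genes (169 CPM) were far above the other 4 libraries. Adipocyte markers reached 551 CPM in B-depleted combination replicate 4, and muscle markers 61.4 CPM in replicate 1. Neutrophil markers were at 305 CPM in WT combination replicate 5. In WT isotype tumours, muscle markers reached 140 CPM and the Y-linked sum was lowest at 47.6 CPM in replicate 3, and adipocyte markers were lowest at 74.4 CPM in replicate 2.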

How the results depend on the processing

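Counts of genes called were 5545 for B-depleted against WT combination, 9529 for combination against isotype in WT, 65 in B-depleted, and 0 for the isotype arms. With the Y-linked covariate they were 4, 77, 31 and 16. Without a filter the first was 3343, the third 35 and the fourth 1. The third was 397 with DESeq2, 6 with 2 groups, 40 without WT isotype replicates 1 and 2, and 21 without the 3 Ighm or Ms4a1 libraries, and the fourth was 5 with DESeq2 and 25 without WT isotype replicates 1 and 2. The replicate block gave 6071, 9583, 33 and 1. Replicate numbers did not pair the libraries: over 30 same-numbered pairs r was -0.421 to 0.551, with 9 over 0.1, and 4 of 21 libraries correlated best with their own number.

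Leaving out 1 library gave 2182 to 7606, 7691 to 10240, 11 to 176 and 0 to 2 genes called. The first count was 2182 and 2251 without WT combination replicates 4 and 5, and 3635, 3042 and 3336 without B-depleted combination replicates 1, 3 and 4. The third was 11 to 43 without B-depleted isotype replicates 1, 2, 4 and 6, B-depleted combination replicates 1, 3 and 5, WT isotype replicates 1 and 5 and WT combination replicate 2, and 176 and 163 without B-depleted isotype replicates 3 and 5. Members called ran from 0 to 1, 1 to 5 and 0 to 1 in the 3 tested comparisons. In WT tumours 1, Sgk1, was called without WT isotype replicate 4, and 5 were called without replicate 2. In B-depleted tumours Klf15 was called without WT isotype replicate 4 (adjusted p = 0.0273, range 0.0273 to 0.185, edgeR).

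In the first comparison 1 member, Sgk1, was called with 2 groups and without WT isotype replicates 1 and 2 (0.27, edgeR adjusted p = 0.0167). In WT tumours 0 were called with the Y-linked covariate, 2 with the replicate block, and 5 without WT isotype replicates 1 and 2, where Klf9 (-0.57) and Per1 (-0.72) were added. Fkbp5 was lost there with no filter, with 2 groups and with the block (edgeR adjusted p = 0.0758, 0.0992 and 0.0589). In B-depleted tumours 1 was called, Klf15, with DESeq2, with the block, and without WT isotype replicates 1 and 2.

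In the alternatives run, no sign turned for Sgk1, Zbtb16 or Fkbp5 between the WT arms. With the Y-linked covariate Fkbp5 was at -0.0175 in the first comparison and Klf9 at 0.0841 between the WT arms, and between the B-depleted arms Klf9 was at 0.0635, Sgk1 at 0.0485, Zbtb16 at 0.28 and Nr3c1 at 0.00221. Without the 3 libraries Klf9 was at 0.0895 in the first and at 0.0377 in the third comparison, with Nr3c1 at 0.0495, and with the block Zbtb16 was at 0.0217. Leaving out 1 library gave -0.14 to 0.0899 for Klf9 in the first comparison, -0.52 to 0.24 for Klf15 between WT arms (0.24 without WT isotype replicate 4), and -0.14 to 0.0718 for Klf9 and -0.13 to 0.17 for Zbtb16 between B-depleted arms. The causes were not tested. Klf15's counts of 4 to 9 in B-depleted isotype libraries limit its precision.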
